A study of Homo sapiens with 6 samples.

Results

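HLA class I antigen presentation is described here through 9 genes, HLA-B, HLA-C, HLA-E, HLA-F, B2M, TAP1, TAP2, TAPBP and NLRC5, in A549 cells. They were picked by symbol from the 19470 gene symbols of the count table, by a rule that uses no measured value, although earlier results of these data were known when the set was drawn up. All 9 had enough counts to be tested. RNA sequencing had been done on 3 libraries of A549 cells activated by osteoclast conditional medium and on 3 libraries of A549 cells under the label inducing dormancy. A549 is an established human lung adenocarcinoma line, and both groups carry the genotype label WT. The labels do not say how dormancy was induced, for how long, or which base medium either group received. The comparison asks which genes differ as dormant lung adenocarcinoma cells become activated.

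Class I molecules show peptides from the inside of a cell to CD8 T cells and natural killer cells. A polymorphic or oligomorphic heavy chain (HLA-B, HLA-C, HLA-E or HLA-F) pairs with the invariant light chain beta-2-microglobulin, the product of B2M. The TAP1 and TAP2 proteins together pump peptides from the cytosol into the endoplasmic reticulum, and tapasin, from TAPBP, bridges the pump to empty class I molecules. NLRC5 is a transactivator of class I genes and acts through a complex of RFX, CREB/ATF1 and NFY proteins on their promoters.

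The libraries held 34128471 to 36667725 counts each, and correlated at 0.995 to 0.997 within a group and at 0.928 to 0.931 between groups (Pearson's r of log2 CPM over genes). CPM are counts per gene scaled to a common library size with TMM factors, which assume that most genes do not change. In edgeR's quasi-likelihood test, with an adjusted p under 0.05 as the threshold, 9830 of 13336 genes changed in activated cells, 4868 upward and 4962 downward. Scaled by total counts instead, 3941 were higher and 5998 lower, and the median change of all tested genes was shifted by -0.14 on the log2 scale. That shift is as large as several of the changes described below, so a call that differs between the scalings is given under both. Of 6 markers of a lung epithelial line, 3 rose, 1 fell and 2 did not pass, or 3 rose and 2 fell with total counts. KRT8 had 3460 ± 168 CPM in activated and 1672 ± 71.8 CPM in dormant libraries (SD, n = 3 each), KRT18 had 1980 ± 140 and 1039 ± 25.3 CPM, and the E-cadherin gene CDH1 had 86.1 ± 2.33 and 36.3 ± 5.34 CPM. KRT19, at 435 ± 45.0 and 478 ± 67.0 CPM, did not pass (adjusted p = 0.185), but was called lower with total counts (adjusted p = 0.0101). NAPSA did not pass (adjusted p = 0.181). EPCAM, an epithelial adhesion gene with only 62 activated and 145 dormant counts, fell (adjusted p = 0.0324), a call lost with the replicate number as a block (adjusted p = 0.051) and without dormant replicate 1 or 2 or activated replicate 2 or 3 (adjusted p from 0.0618 to 0.162).

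Sequence upstream of the transcription start was at hand for 7 of the 9 genes, from RefSeq (GRCh38.p14), and is shown because such promoters carry sites known to bind the factors described further on. HLA-E and NLRC5 had no entry. In the 250 bases before each start, both strands were searched for 5 motifs, chosen after the windows had been read. They were a kappaB site of NF-kB (GGG, any 2 bases, TT, any base, CC), the interferon-stimulated response element bound by interferon regulatory factors (GAAA, any 2 bases, GAAA), a shorter form of that element (AAGTGAAA, which can overlap the longer one), a CRE-like site (TGACGC) and the Y box bound by NFY (CCAATCAG). Capitals mark the matches and the rest is in lower case, 5′ to 3′ on the gene's strand.
HLA-B: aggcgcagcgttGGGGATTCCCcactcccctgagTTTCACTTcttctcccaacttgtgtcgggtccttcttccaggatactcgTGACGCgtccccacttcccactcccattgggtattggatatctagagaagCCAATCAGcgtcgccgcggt
HLA-C: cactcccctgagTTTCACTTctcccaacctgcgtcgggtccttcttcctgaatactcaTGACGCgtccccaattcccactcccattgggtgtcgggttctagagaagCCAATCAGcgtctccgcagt
HLA-F: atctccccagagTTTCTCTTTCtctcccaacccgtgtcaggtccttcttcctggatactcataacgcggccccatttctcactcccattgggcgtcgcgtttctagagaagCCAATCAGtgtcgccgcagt
B2M: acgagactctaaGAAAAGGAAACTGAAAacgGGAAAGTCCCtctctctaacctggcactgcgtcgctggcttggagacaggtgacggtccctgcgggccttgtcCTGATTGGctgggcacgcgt
TAP1: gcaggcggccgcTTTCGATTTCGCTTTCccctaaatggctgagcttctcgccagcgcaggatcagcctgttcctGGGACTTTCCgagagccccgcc
TAP2: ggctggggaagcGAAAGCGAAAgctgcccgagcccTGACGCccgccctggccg
TAPBP: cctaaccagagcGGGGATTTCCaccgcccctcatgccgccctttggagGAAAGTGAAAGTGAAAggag
The stretches lie at chr6:31357216-31357368 for HLA-B, chr6:31272129-31272255 for HLA-C, chr6:29723266-29723396 for HLA-F, chr15:44711361-44711484 for B2M, chr6:32853755-32853850 for TAP1, chr6:32838757-32838809 for TAP2 and chr6:33314079-33314146 for TAPBP. HLA-F and B2M are on the plus strand and the other 5 on the minus strand.

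The promoters of HLA-B, HLA-C, HLA-F and B2M shared the Y box, at nearly the same distance from the start. It began 56 bases before the start in HLA-B and HLA-C, 57 in HLA-F and 52, on the other strand, in B2M, and 3.81% of all 35116 promoter windows held it. The longer interferon element was found in 5 of the 7 genes (HLA-F, B2M, TAP1, TAP2 and TAPBP), against 3.02% of all windows, and in B2M, TAP1 and TAPBP 2 copies overlapped. HLA-B and HLA-C instead held the shorter form, as did TAPBP (1.37% of all windows). The kappaB site was found in HLA-B, B2M, TAP1 and TAPBP (5.07%) and the CRE-like site in HLA-B, HLA-C and TAP2 (7.67%). HLA-B and HLA-C promoters were 89% identical over an alignment of these 250 bases, and HLA-F was 79.8% identical to HLA-B. A match is a description of these letters and not evidence that a factor binds there in A549 cells.

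Of the 9 class I genes, 5 rose in activated cells, 2 fell and 2 did not pass the test. Among all tested genes 73.7% passed, 36.5% higher and 37.2% lower, so the share of class I genes that changed was near the background. With total counts the split was 3 higher and 3 lower, where 74.5% of tested genes passed, 29.6% higher and 45.0% lower. The largest of the changes, that of NLRC5, was 1.58-fold, whereas 22.2% of tested genes passed with at least a 2-fold change. The median absolute log2 fold change was 0.32 over the 9 genes and 0.50 over all tested genes, and the median signed change was 0.12 over the 9 genes and -0.02 over all tested genes. Activated and dormant libraries were fully separated for 7 of the 9 genes, against 76.5% of tested genes. In bulk RNA, fewer cells of a type and less RNA per cell cannot be told apart.

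**Figure D1:**
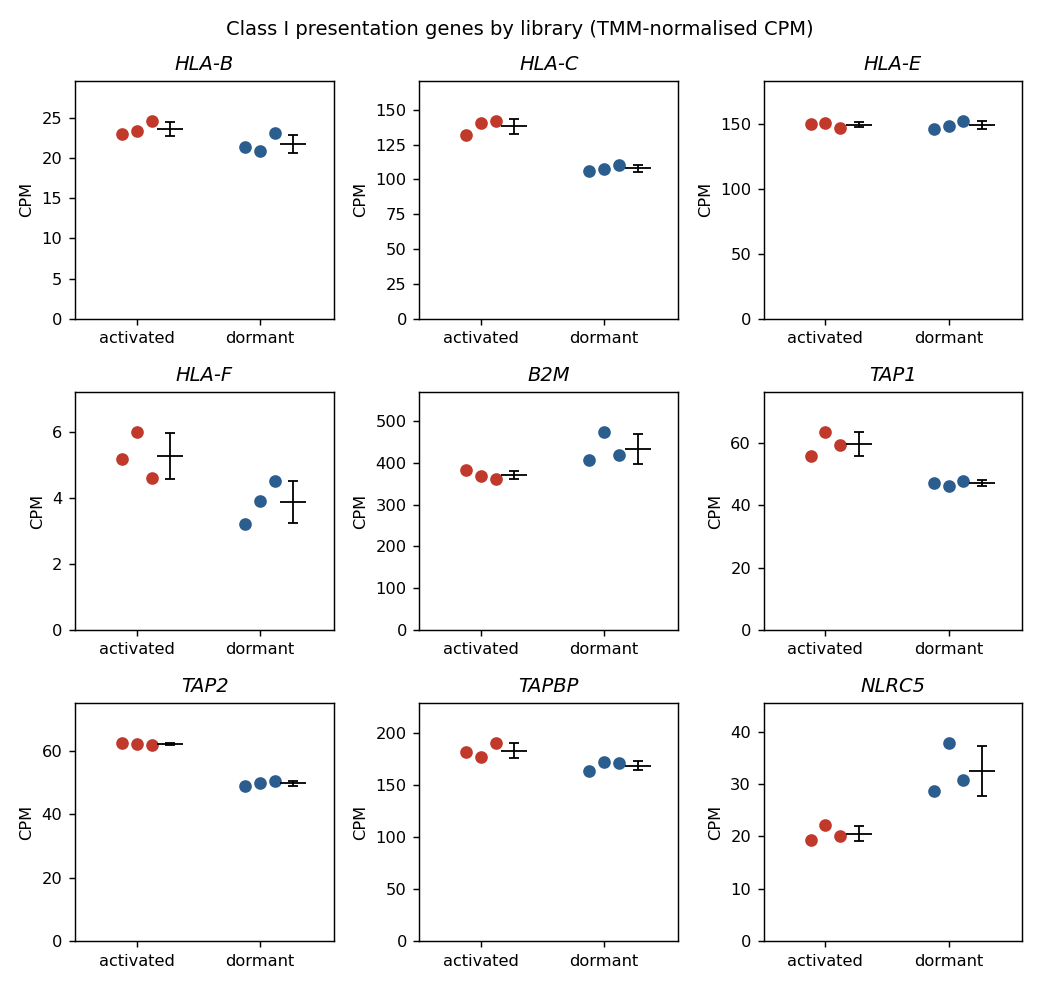
TMM-normalised CPM (vertical axes from 0) of the 9 class I presentation genes in the 3 activated libraries (red, left) and the 3 dormant libraries (blue, right), with the mean and SD of each group as black bars. TAP1, TAP2 and HLA-C sit higher in every activated library, NLRC5 and B2M lower, and the groups overlap for HLA-B and HLA-E.

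HLA-C, a classical heavy chain that also engages inhibitory receptors of natural killer cells (chromosome 6, 31268749 to 31272092), had 132, 140.4 and 142 CPM in activated libraries, against 106, 108 and 111 CPM in dormant libraries. All 3 activated libraries were above all 3 dormant ones. The gene rose 1.28-fold (log2 fold change 0.35 ± 0.05 SE, adjusted p = 1.7e-05 in edgeR's quasi-likelihood test), or 1.16-fold with total counts (adjusted p = 0.00158).

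HLA-B, the other classical heavy chain examined (chromosome 6, 31353875 to 31357179), had 23.0, 23.4 and 24.7 CPM in activated libraries, against 21.3, 20.9 and 23.1 CPM in dormant libraries. The third dormant library lay among the activated values. The change did not pass (log2 fold change 0.12, edgeR adjusted p = 0.173), and its 95% interval ran from 0.969-fold to 1.22-fold. Under total-count scaling its sign turned (log2 fold change -0.02, adjusted p = 0.841).

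HLA-E, which presents leader peptides of other class I chains to natural killer cells (chromosome 6, 30489509 to 30494194), had 149.8, 151 and 147 CPM in activated libraries, against 146, 148 and 152 CPM in dormant libraries. The groups overlapped fully. The log2 fold change was 0.00 ± 0.05 SE (edgeR adjusted p = 0.949), with a 95% interval of 0.935-fold to 1.07-fold. Under total-count scaling HLA-E was called lower instead (log2 fold change -0.14, adjusted p = 0.0166), so its direction depended on the scaling.

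HLA-F, a nonclassical chain (chromosome 6, 29723434 to 29738532), had the fewest counts of the 9, with 5.20, 6.02 and 4.63 CPM in activated libraries, against 3.23, 3.91 and 4.53 CPM in dormant libraries. The lowest activated value was only just above the highest dormant one. Its 1.36-fold rise passed by a small margin (edgeR adjusted p = 0.0445) from 539 activated and 435 dormant counts. The call was lost with total counts (adjusted p = 0.159), with the replicate number as a block (adjusted p = 0.0566), without dormant replicate 1 (adjusted p = 0.158), without dormant replicate 2 (adjusted p = 0.0783) and without activated replicate 1 or 2 (adjusted p = 0.0604 and 0.158).

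Class I genes are near copies of each other, so their separate values are uncertain. Of all 50-base windows of the longest coding transcript in GENCODE 29, 2.54% for HLA-B, 6.71% for HLA-C, 5.13% for HLA-E and 1.7% for HLA-F also occurred exactly in a transcript of another gene. For 100-base windows the shares were 0, 0.275%, 0.6% and 0. These shares describe the reference alleles. How far the alleles of A549 differ from them, and how many reads that cost, was not measured. Summed into one feature, HLA-B, HLA-C, HLA-E and HLA-F gave 309.7, 320.4 and 318 CPM in activated libraries, against 276, 281 and 290.5 CPM in dormant libraries. This sum was 1.12-fold higher in activated cells with TMM factors (edgeR adjusted p = 0.0053), a call lost with total counts, where it was 1.02-fold (adjusted p = 0.667, an alternative chosen after seeing the data).

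B2M, the light chain gene (chromosome 15, 44711517 to 44718145), was lower in activated cells, at 383, 368 and 362 CPM, against 406, 475 and 418 CPM in dormant libraries. Every activated library was below every dormant one, and dormant replicate 2 was the highest. The gene fell by 0.22 on the log2 scale (± 0.06 SE, edgeR adjusted p = 0.00301), 1.17-fold, and by 0.36 with total counts (adjusted p = 7.03e-05). Without dormant replicate 2 the fall was smaller, at -0.15 (adjusted p = 0.021). No 50-base window of its transcript occurred in another gene and no other annotated gene overlapped its exons.

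Per length, in the FPKM deposited by the authors, the 4 heavy chains together were at 0.398, 0.430 and 0.438 of the B2M level in activated libraries, against 0.328, 0.284 and 0.334 in dormant libraries. The groups did not overlap, and the difference in log2 ratio was 0.42 (exact two-sided permutation test p = 0.10, the smallest that 20 assignments of 3 against 3 allow). Such a ratio within a library does not depend on the scaling between libraries. The ratio of HLA-B to HLA-C was 0.176, 0.167 and 0.174 in activated libraries and 0.202, 0.195 and 0.210 in dormant libraries, again without overlap (exact permutation p = 0.10). Across the 6 ratios tested in all, 4 reached this smallest p, which became 0.15 after Benjamini-Hochberg adjustment over the 6.

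TAP1, encoding the first chain of the peptide pump (chromosome 6, 32845209 to 32853704), had 55.9, 63.6 and 59.4 CPM in activated libraries, against 47.3, 46.0 and 47.8 CPM in dormant libraries. TAP2, the second chain (chromosome 6, 32821831 to 32838739), had 62.6, 62.2 and 62.1 CPM in activated libraries, against 49.0, 50.03 and 50.6 CPM in dormant libraries. Both genes were higher in all 3 activated libraries than in any dormant library. TAP1 rose by 0.34 on the log2 scale (± 0.06 SE, edgeR adjusted p = 0.000137) and TAP2 by 0.32 (± 0.05 SE, edgeR adjusted p = 6.64e-05), and both calls held with total counts, at 1.15-fold and 1.13-fold. Their ratio per length, TAP1 over TAP2, was 1.92, 2.20 and 2.06 in activated libraries and 2.07, 1.98 and 2.03 in dormant libraries, which overlapped (difference in log2 ratio 0.02, exact permutation p = 0.90). In the GENCODE 29 annotation, 32.3% of TAP2 exon bases are shared with a read-through gene on the same strand and 9.49% of TAP1 exon bases with an antisense transcript, PSMB8-AS1. HLA-F has 28.5% of its exon bases covered on the opposite strand and HLA-B 17.8%. No label says whether counting used strand, so reads of such overlapping genes cannot be told apart.

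TAPBP, encoding tapasin (chromosome 6, 33299694 to 33314078), had 181, 177 and 190.1 CPM in activated libraries, against 163, 172 and 170.3 CPM in dormant libraries. The groups did not overlap, but the gap between them was narrower than the spread within either. The 1.09-fold rise barely passed (edgeR adjusted p = 0.044) and was lost with total counts, where the sign turned (log2 fold change -0.02, adjusted p = 0.698). It was also lost without activated replicate 3 (adjusted p = 0.182) and without each dormant replicate in turn (adjusted p = 0.14, 0.0503 and 0.0791).

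NLRC5 (chromosome 16, 56989557 to 57083520), the transactivator, moved most and in the opposite direction to the TAP genes. It had 19.4, 22.1 and 20.05 CPM in activated libraries, against 28.8, 37.9 and 30.7 CPM in dormant libraries. Every activated library was lower than every dormant one, and dormant replicate 2 was the highest, as it was for B2M. NLRC5 fell by 0.66 on the log2 scale (± 0.10 SE, edgeR adjusted p = 2.73e-05), by 0.80 with total counts and by 0.53 without dormant replicate 2 (adjusted p = 0.000144). Its absolute change exceeded that of 61.3% of tested genes, whereas the other 8 class I genes lay between 0.405% and 45.1%.

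**Figure D2:**
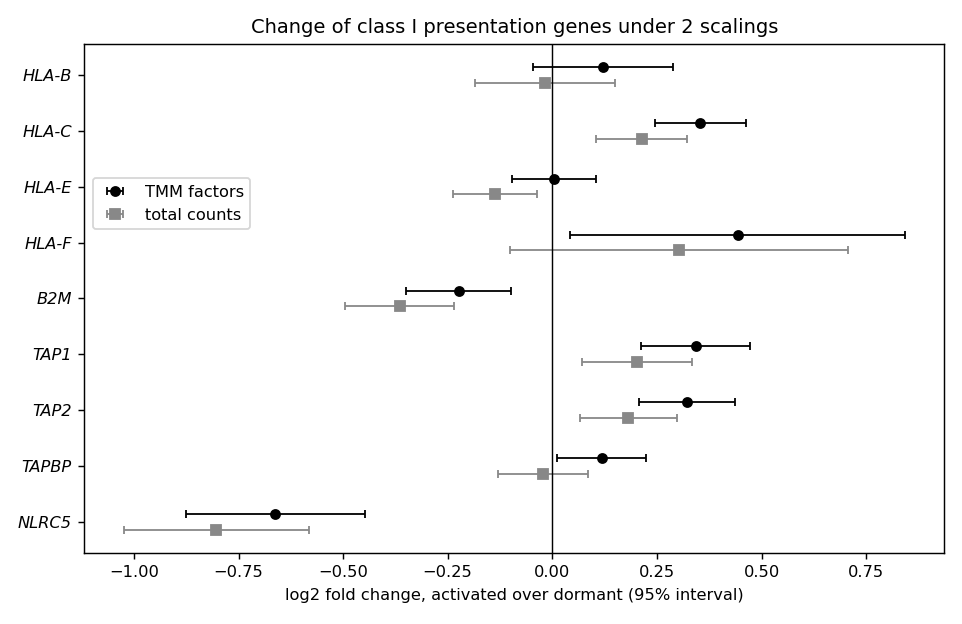
Log2 fold change, activated over dormant, of the 9 class I presentation genes with its 95% interval, under TMM factors (black circles) and under total counts (grey squares). HLA-C, TAP1 and TAP2 stay above 0 and NLRC5 and B2M below 0 under both scalings, whereas HLA-B, HLA-E and TAPBP change sides and the interval of HLA-F reaches 0 with total counts.

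The order of the 9 genes by level per length was the same in both groups. In FPKM, B2M stood at 365 ± 10.4 in activated and 469.8 ± 44.0 in dormant libraries (SD, n = 3 each). HLA-C followed at 85.3 ± 3.49 and 73.6 ± 1.95, HLA-E at 53.0 ± 0.732 and 58.3 ± 1.44, and TAPBP at 45.8 ± 1.68 and 46.5 ± 1.71. Further down were TAP1 (19.9 ± 1.29 and 17.3 ± 0.242), HLA-B (14.7 ± 0.534 and 14.9 ± 0.758) and TAP2 (9.68 ± 0.0435 and 8.53 ± 0.193). NLRC5, at 2.44 ± 0.171 and 4.26 ± 0.672, and HLA-F, at 0.872 ± 0.116 and 0.707 ± 0.120, were the lowest. Neighbours in this order did not overlap in either group. HLA-B was thus far below HLA-C in both. FPKM is scaled by total counts, so a difference between groups on this scale follows the total-count fit.

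Genes with the profile closest to a member's, by the root mean square difference of centred log2 CPM over the 6 libraries among 11100 other genes, were sought for HLA-B, B2M and TAP1. For HLA-B they were IFT140 (0.0223), TMEM64 (0.0265) and STK10 (0.0281), whose edgeR adjusted p were 0.197, 0.0876 and 0.129. For B2M they were RUNDC1 (0.0232), IKBKB (0.0282) and GM2A (0.0313), which fell by 0.23, 0.22 and 0.25 on the log2 scale. For TAP1 they were EXT1 (0.0140), NSD2 (0.0164) and B4GALT1 (0.0165), which rose by 0.33, 0.32 and 0.35. The 6 libraries form 2 groups, so a like change between groups makes up much of such likeness.

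Of 10 genes of peptide loading and trimming in the endoplasmic reticulum, 6 rose and 2 fell, near the 73.7% of tested genes that changed. Their median log2 fold change was 0.43, or 0.29 with total counts. CALR, encoding calreticulin, which holds heavy chains in the loading complex, reached 1211 ± 39.8 CPM in activated libraries, against 352 ± 8.08 CPM in dormant libraries (log2 fold change 1.78, edgeR adjusted p = 2.23e-13). PDIA3, the disulfide isomerase ERp57 joined to tapasin, had 493 ± 24.4 CPM in activated and 212 ± 5.03 CPM in dormant libraries. UGGT1, which checks glycoprotein folding, rose by 0.81 on the log2 scale. Both of the genes that fell did so modestly. ERAP1, an aminopeptidase that trims peptides to class I length, fell by 0.23 (adjusted p = 0.0102), and the translocon gene SEC61A1 by 0.11 (adjusted p = 0.0399). The SEC61A1 call was lost with DESeq2 size factors (adjusted p = 0.0613) and without dormant replicate 1 or 3 or activated replicate 2 or 3 (adjusted p from 0.0541 to 0.206). ERAP2 and the tapasin-related TAPBPL did not pass.

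Proteasomes cut proteins into peptides, and interferon can replace their constitutive catalytic subunits by those of the immunoproteasome. Of these, PSMB8 had 31.3 ± 2.57 CPM in activated and 34.2 ± 1.09 CPM in dormant libraries and did not pass (edgeR adjusted p = 0.127, 95% interval 0.820-fold to 1.02-fold), but was called lower under total-count scaling (-0.27 on the log2 scale, adjusted p = 0.00479). PSMB9, at 7.05 ± 0.388 and 5.65 ± 1.55 CPM, did not pass either (adjusted p = 0.128, 0.951-fold to 1.64-fold). Its dormant libraries had 5.29, 4.32 and 7.35 CPM, and without dormant replicate 3 it was called higher. PSMB10 fell by 0.26 on the log2 scale (adjusted p = 0.0374), a call lost with DESeq2 (adjusted p = 0.0613) and without dormant replicate 1 or 3 or activated replicate 1 or 2 (adjusted p from 0.0674 to 0.178). Of the constitutive counterparts, PSMB5 had 177 ± 11.8 CPM in activated and 89.5 ± 4.99 CPM in dormant libraries, and PSMB6 had 159.7 ± 5.05 and 49.7 ± 3.82 CPM, rises of 0.99 and 1.68 on the log2 scale. PSMB7 fell by 0.14 (adjusted p = 0.0376), a call lost with DESeq2 (adjusted p = 0.0553) and without any 1 library except activated replicate 1 (adjusted p from 0.0534 to 0.172).

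Within a library, the ratio per length of PSMB8 to its counterpart PSMB5 was 0.129, 0.163 and 0.141 in activated cells, against 0.304, 0.344 and 0.290 in dormant cells. The ratio of PSMB9 to PSMB6 was 0.0361, 0.0390 and 0.0349 in activated cells, against 0.0834, 0.0790 and 0.119 in dormant cells. Neither overlapped between groups, with differences in log2 ratio of -1.12 and -1.33 (exact permutation p = 0.10 each, the smallest possible). PSMB10 over PSMB7 overlapped (difference -0.12, exact permutation p = 0.50). Of the subunits of the PA28 activator, which opens the proteasome, PSME2 rose by 0.74 and PSME1 by 0.17. The PSME1 call was lost under total-count scaling (0.03, adjusted p = 0.728) and without any 1 library except activated replicate 2 (adjusted p from 0.0546 to 0.139). Of the 5 genes of the immunoproteasome and PA28, 2 rose and 1 fell, or 1 and 2 with total counts, and only 1 passed without dormant replicate 1 or activated replicate 1. The 60.0% that changed compares with 73.7% of all tested genes. Of 7 cytosolic peptidases, 4 rose and 3 did not pass, so that 57.1% changed, against 73.7% of all tested genes. With total counts 4 rose and TPP2 fell (adjusted p = 0.0074). The 4 that rose were THOP1, at 0.88, NPEPPS, at 0.58, BLMH, at 0.48, and DPP3, at 0.42.

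**Figure D3:**
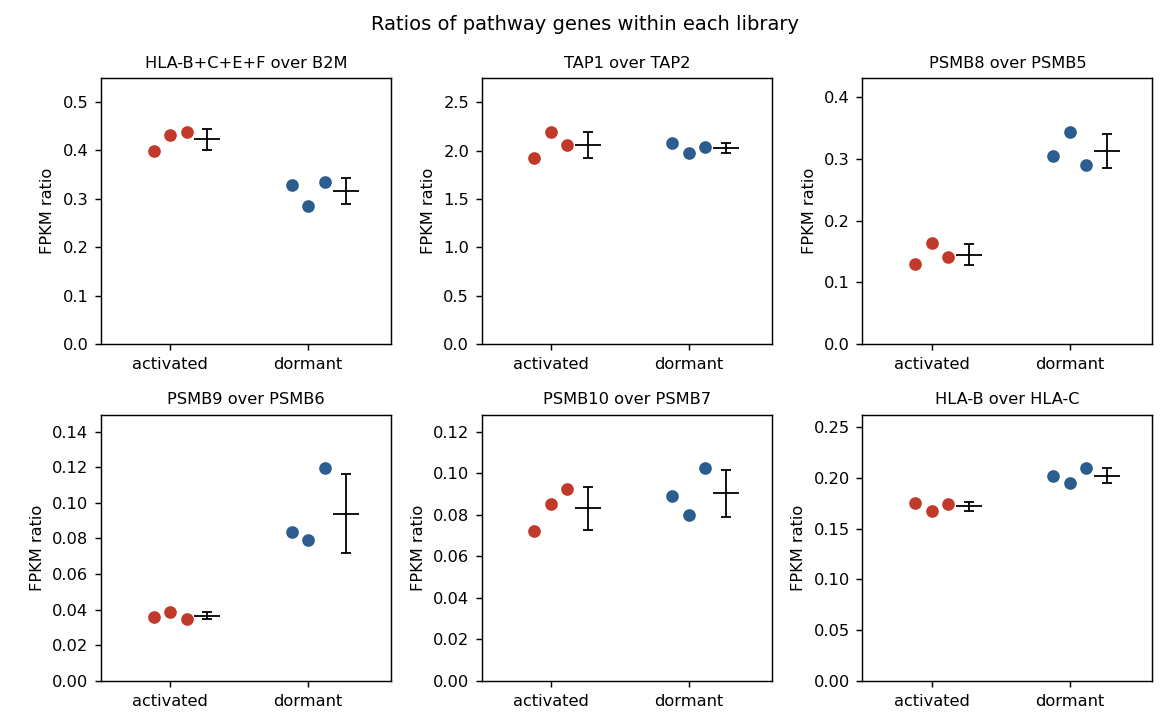
Ratios of FPKM within each library, for the 3 activated (red, left) and 3 dormant (blue, right) libraries, with the mean and SD of each group as black bars. Heavy chains over B2M lie higher in activated libraries, PSMB8 over PSMB5, PSMB9 over PSMB6 and HLA-B over HLA-C lie lower, and TAP1 over TAP2 and PSMB10 over PSMB7 overlap.

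Genes for factors known to bind such promoter sites moved in both directions. Of 13 genes for class I promoter factors, 3 rose and 7 fell (76.9% changed, near the 73.7% of all tested genes), with a median log2 fold change of -0.19. With total counts 3 rose and 8 fell, NFYC among them (adjusted p = 0.00693), and the median was -0.33. Within the RFX complex, which NLRC5 joins, RFX5 rose by 0.84 (66.7 ± 4.86 CPM in activated and 37.4 ± 1.74 CPM in dormant libraries) and RFXANK by 0.43, while RFXAP, at 1.63 ± 0.300 and 3.24 ± 0.293 CPM, fell by 0.99. ATF1, which binds CRE-like sites, fell by 0.67. IRF1, an activator at the interferon element, had 38.0 ± 0.673 CPM in activated libraries, against 73.1 ± 3.77 CPM in dormant libraries (log2 fold change -0.94, edgeR adjusted p = 1.79e-09). NFKB1, encoding an NF-kB subunit, had 68.1 ± 0.725 and 68.0 ± 7.82 CPM and did not pass (adjusted p = 0.988). RELA, encoding another NF-kB subunit, had 119 ± 6.21 CPM in activated and 153 ± 2.18 CPM in dormant libraries. It fell by 0.37 on the log2 scale (edgeR adjusted p = 1.36e-05). NFKB1 and RELA are named after their values were seen.

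Of 10 genes of interferon gamma signalling, 4 rose and 4 fell, near the share of 73.7% of all tested genes. With total counts 4 rose and 5 fell, PTPN2 among them (adjusted p = 0.00689). SOCS3, a feedback inhibitor of JAK kinases, rose most, to 215 ± 0.859 CPM in activated libraries, against 31.1 ± 3.57 CPM in dormant libraries. The receptor gene IFNGR1 rose by 0.78 and the kinase gene JAK2 by 0.86. The partner receptor chain IFNGR2 and the kinase gene JAK1 each fell by 0.26. IRF1, described above, belongs to this list too.

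Among genes that silence class I loci or remove class I proteins, all 3 subunits of the Polycomb repressive complex 2 that were listed rose. EZH2, its methyltransferase, had 39.8 ± 1.36 CPM in activated and 15.4 ± 2.48 CPM in dormant libraries, EED rose by 1.27 and SUZ12 by 0.60. Of the 7 turnover genes, 5 fell and 2 did not pass. They included NBR1, an autophagy receptor reported to send class I to lysosomes, at -0.64, the ubiquitin ligase gene WWP2 at -0.58 and MARCHF9, a membrane ubiquitin ligase, at -0.41. In all, 8 of the 10 genes changed, near the 73.7% of all tested genes.

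**Figure D4:**
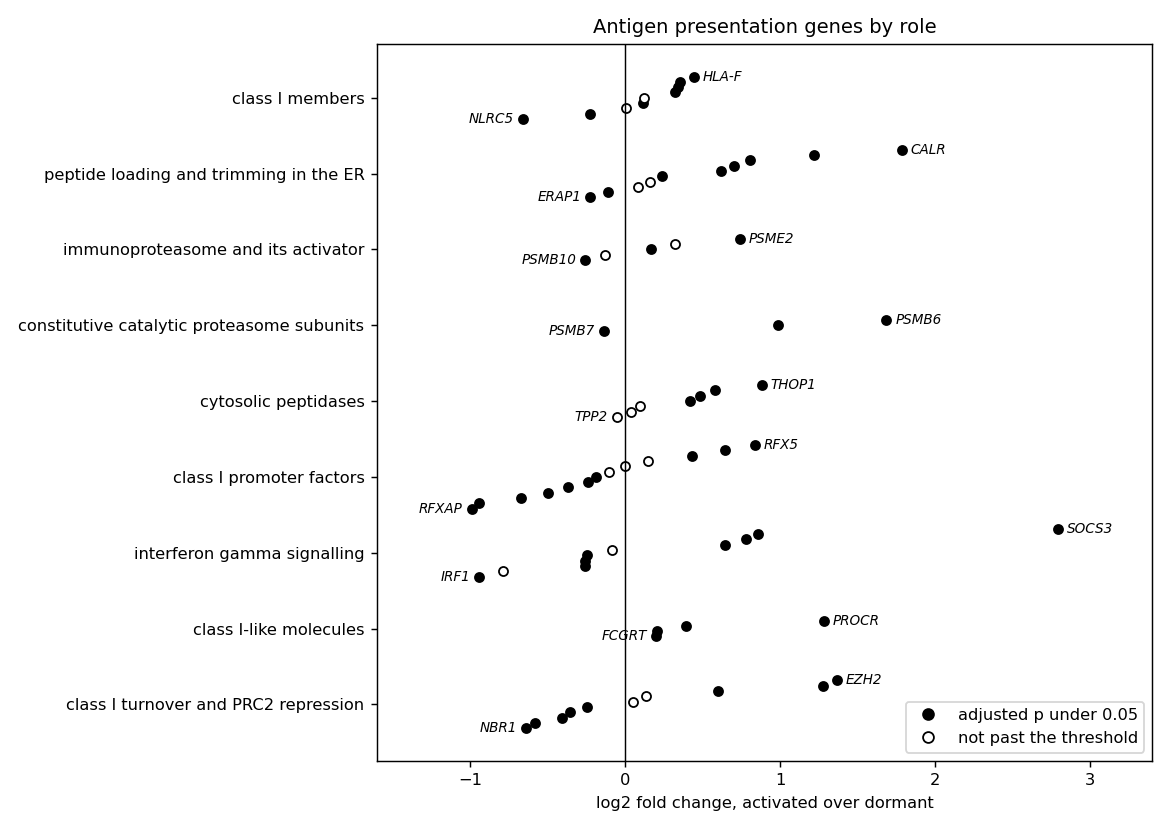
Log2 fold change, activated over dormant, of each tested gene of antigen presentation except the class II genes, 1 row of points per role. Points are filled for an adjusted p under 0.05 and open otherwise. The lowest and highest gene of each role is named, and the class I genes span from NLRC5 to HLA-F. Among the genes named in the figure, CALR, PSMB6, SOCS3, PROCR and EZH2 lie beyond 1.

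Class II genes, which serve CD4 T cells, mostly had too few counts to be tested, and 3 were tested. Of 13 listed, 6 had 0 counts in all libraries (HLA-DRA, HLA-DRB1, HLA-DPA1, HLA-DQA1, HLA-DQB1 and HLA-DOA), which allows up to 0.0914 CPM in an activated library and 0.0839 CPM in a dormant library. Their transactivator CIITA had 10 activated and 3 dormant counts and the invariant chain gene CD74 had 10 and 2. HLA-DMA, with 162 activated and 220 dormant counts, and HLA-DMB, with 41 and 31, were tested and did not pass (edgeR adjusted p = 0.42 and 0.345). CTSS, a protease of the pathway that is also active elsewhere, fell by 0.60. Of 7 class I-like genes, 4 were tested and all 4 rose, where 36.5% of all tested genes rose. With total counts 2 of the 4 rose, where 29.6% of all tested genes rose. PROCR rose by 1.28 and HFE, an iron regulator, by 0.39. The rises of MR1 and FCGRT, both 0.20, were lost with total counts (adjusted p = 0.42 and 0.512). They were also lost without single libraries, MR1 without dormant replicate 1 (adjusted p = 0.0742) or activated replicate 3 (0.0719), and FCGRT without dormant replicate 1 or 3 or activated replicate 1 or 2 (adjusted p from 0.05 to 0.126). HLA-G had 0 counts in all libraries, with the same upper limits.

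Immune cells are known for high class I levels, and markers of other cell types were therefore counted. Of 14 myeloid and lymphoid markers, 4 were tested and all 4 rose, where 36.5% of all tested genes rose. The summed level of the 14 was 17.4 to 19.2 CPM in activated libraries and 3.94 to 6.12 CPM in dormant libraries. TYROBP, AIF1, C1QA, C1QB and CD3E had 0 counts in every library, and PTPRC, the common leukocyte gene, had 5 activated and 1 dormant counts. CD14 had 9.25 ± 0.478 CPM in activated and 1.10 ± 0.396 CPM in dormant libraries. ITGAM rose by 0.79, LAPTM5 had 214 activated and 25 dormant counts, and CSF1R had 79 and 10. LAPTM5 and CSF1R passed the filter only through their activated counts, so being tested already favoured a rise.

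Osteoclast markers moved both ways, 3 higher and 4 lower of 9 tested. The 77.8% that changed was near the 73.7% of all tested genes, 36.5% higher and 37.2% lower. With total counts 3 were higher and 5 lower, OSCAR among them (edgeR adjusted p = 0.0308). There 29.6% of all tested genes were higher and 45.0% lower. The summed levels of the markers were 447 to 535 CPM in activated and 126 to 129 CPM in dormant libraries. Most of the sum came from ITGB3 (265 ± 41.4 CPM in activated, 5.88 ± 0.609 CPM in dormant libraries) and TCIRG1 (197 ± 2.50 and 67.8 ± 1.48 CPM). CALCR, DCSTAMP and OCSTAMP had 0 counts in every library, and ACP5 had 5 activated and 63 dormant counts. ATP6V0D2, with 7 activated and 2164 dormant counts, fell by 8.06 on the log2 scale, NFATC1 by 0.86 and CTSK by 0.40. The CTSK call was lost without dormant replicate 2 (adjusted p = 0.108), activated replicate 2 (0.0575) or activated replicate 3 (0.0537). MMP9, with 78 activated and 16 dormant counts, rose. ACP5, ATP6V0D2 and OSCAR passed the filter only through their dormant counts and MMP9 only through its activated counts, which favoured these directions. Of 9 stromal and endothelial markers, 4 were tested and all 4 rose (COL1A1, DCN, LUM and PDGFRA), where 36.5% of all tested genes rose. The summed levels of the 9 were 10.7 to 12.6 CPM in activated and 6.04 to 6.22 CPM in dormant libraries. DCN (46 activated and 1 dormant counts) and PDGFRA (84 and 13) passed the filter only through their activated counts, so being tested already favoured a rise. The part of any such RNA in the class I values was not tested.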

How the data were processed

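RNA from 3 activated and 3 dormant A549 libraries had been extracted with TRIzol and prepared with a VAHTS Universal V6 kit, per the labels' protocols. The first table deposited by the authors holds whole-number counts per gene symbol. The second table deposited by the authors holds FPKM, which is the same count divided by a gene length and the library total. The tools fastp, HISAT2 and HTSeq and the build GRCh38 are named in the submitters' processing notes. No source used here gives their versions, the annotation or the strand setting. No label says that replicates were separate cultures, so the p-values reflect only how much these libraries varied, perhaps for technical reasons.

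Counts were fitted in R 4.3.3 with edgeR 4.0.16, by the quasi-likelihood test after TMM scaling and the default filter by group, and Benjamini-Hochberg adjustment over all 13336 tested genes, with a threshold of 0.05. CPM are TMM-normalised, errors are SD of 3 libraries, and the SE of a log2 fold change is its size divided by the square root of F. The procedure was tested on simulated counts in which, unlike here, only a small part of the genes was altered. That simulation could therefore not test the TMM assumption that most genes do not change. Within-library ratios of FPKM were compared with an exact two-sided permutation test. Alternatives used DESeq2 1.42.0, limma 3.58.1 (voom, and log2(FPKM + 1) or log2(FPKM + 0.1)), other scalings and filters, a replicate block and leaving out each library. Limits for a count of 0 rest on 3 counts and cover counting error only.

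The rule for the members uses no measured value, but the members and gene lists were chosen with earlier results of these data known. Genes named were the 9 members, list genes past the threshold (in lists with more than 5 of these, the 3 largest changes each way), all markers past it, and the 3 genes with the profile closest to HLA-B, B2M and TAP1 among genes whose mean log2 CPM reached 2. The genes named as not passing or as undetected, and RELA, were chosen after their values were seen. Some genes of the lists are counted but not reported here by name. Gene positions and promoters are from RefSeq (GRCh38.p14), and exon overlaps and transcripts from GENCODE 29, in 1-based coordinates.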

Additional observations from a re-analysis of the deposited data

How the results depend on the processing

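Across other scalings, tools, filters and units, 9109 to 10009 genes changed instead of 9830, and 9298 to 9756 without 1 library. The class I genes that changed numbered 7 of 9, and 5 to 7 under the alternatives, or 5 to 6 without 1 library. With the heavy chains summed only 6 features were left, of which 6 changed, or 4 with total counts, an alternative chosen after seeing the data. In the pathway lists 47 genes changed, and 45 to 49 under the alternatives, or 39 to 45 without 1 library. Calls for HLA-C, TAP1, TAP2, B2M and NLRC5 held under all 17 alternatives, with log2 fold changes of 0.21 to 0.39, 0.19 to 0.39, 0.16 to 0.34, -0.36 to -0.15 and -0.80 to -0.53. The rise of HLA-F was lost in 10 of the 17, and that of TAPBP was lost in 6 and turned in 4. With total counts, HLA-B, HLA-E, TAPBP, IFT140, TMEM64 and STK10 were at -0.018, -0.14, -0.022, -0.0504, -0.018 and -0.047. With log2(FPKM + 0.1) they were at -0.018, -0.14, -0.022, -0.049, -0.017 and -0.046, and with log2(FPKM + 1), filtered or not, at -0.017, -0.13, -0.022, -0.039, -0.015 and -0.043. FPKM share the scaling by total counts. HLA-E was also at -0.023 with upper-quartile factors, at -0.0025 with a filter of 1 CPM, and at -0.0045 to 0.025 without 1 library. The log2 difference in the ratio of TAP1 to TAP2 ran from -0.0296 to 0.067 without 1 library and was lowest without activated replicate 2. From counts, that in the ratio of heavy chains to B2M was 0.38. For these turns the cause was not tested.

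Under the replicate block, the number of genes changed was 9789, with 6 class I genes and 47 genes of the pathway lists among them. Libraries of the same number deviated together at correlations of 0.0125, 0.0195 and 0.0121, all below 0.1, and were therefore not treated as pairs. Each did correlate most with the library of its number. Of the genes named, HLA-F and EPCAM lost their calls under the block (adjusted p = 0.0566 and 0.051). Depth limits HLA-F, RFXAP and the markers with few counts.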
